A study of Arabidopsis thaliana with 24 samples.

Results

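The genes described here are 36 nuclear genes of the photosynthetic light reactions in Arabidopsis thaliana. They were chosen by gene identifier from lists of photosystem subunits, with earlier results of these data known. They comprise the antenna genes LHCB3 to LHCB6 and LHCA1 to LHCA4, nuclear subunits of photosystem I (PSA genes) and photosystem II (PSB genes), the Rieske protein gene PETC and the plastocyanin genes PETE1 and PETE2. The antenna genes LHCB1 and LHCB2 were left out of the list. All 36 were listed in both seedling tables, out of 24900 genes listed in either, 23202 for Col-0 and 23059 for Ler.

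Seedlings were tetraploid (4x) Col-0, diploid (2x) Col-0, tetraploid Ler or diploid Ler, where Col-0 and Ler are natural accessions of the species, with 2 RNA-seq libraries in each of these groups. All were seedlings of 2 weeks of age, grown at 22 °C. The labels name no mutation, transgene or treatment in any group and do not say how the tetraploid lines were made. Light lasted 16 h or 8 h a day, and the labels do not say which applied to these libraries. The study's title concerns H3K27 trimethylation, a repressive histone mark, and flowering time in polyploid accessions. Its 16 chromatin libraries were not analysed here.

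In the light reactions, antenna proteins carry chlorophyll and pass excitation to photosystem II or photosystem I, the pigment-protein complexes that drive electron transport across the thylakoid membrane. Photosystem II oxidises water, and electrons then pass through the cytochrome b6f complex and plastocyanin to photosystem I and on to ferredoxin. The core reaction-centre proteins are encoded in the chloroplast, whereas the antenna and most small and peripheral subunits are nuclear, and their transcripts are abundant in green tissue and respond to light and to the circadian clock.

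Each deposited table gives, per gene, a mean normalized read count over the 4 libraries of an accession, a log2 fold change between ploidies with its standard error (±), and a p-value adjusted by the Benjamini-Hochberg method from DESeq2's Wald test. A gene is called here when that adjusted p was under 0.05. Values per library are not in the tables, so the mean count of each ploidy was worked out from the overall mean and the fold change and is termed the implied count, which carries no spread of its own. Fold changes were read as tetraploid over diploid, although the headers leave the direction unstated. For Col-0 that reading rests on ESP and ESM1, a pair of glucosinolate breakdown genes, since the Col-0 accession is known for little ESP and much ESM1 transcript and the diploid was taken to be that standard line. Their log2 fold changes in the authors' deposited table were 6.94 ± 0.07 and −3.93 ± 0.07. For Ler no gene here fixes the direction, which was read from the like form of the tables. If a direction were the other way round, every tetraploid and diploid value of that accession would change places. Counts are relative to the reads of a library, so a change in total RNA per cell shared by all genes cannot be seen, and in whole seedlings fewer cells of a type and less RNA per cell cannot be told apart.

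The 36 genes took 6.88% of all implied reads in tetraploid Col-0 and 7.30% in diploid Col-0, and 6.72% in tetraploid Ler and 7.10% in diploid Ler. Their lowest mean count was 1890 (LHCB4.3) in Col-0 and 3024 (PETE1) in Ler in the authors' deposited tables. The authors' standard errors of their log2 fold changes lay between 0.05 and 0.10 for Col-0 and between 0.07 and 0.09 for Ler. All 36 genes passed the authors' filter on low counts in both tables.

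The authors' deposited tables showed mesophyll markers at high counts, with 0 of 5 called in either accession. Summed over the 5, implied counts were 1132770 in tetraploid Col-0 and 1130010 in diploid Col-0, a ratio of 1.002. In Ler the sums were 1125850 in tetraploids and 1171790 in diploids, a ratio of 0.961. Root markers were few, with 6 of 8 list genes found in the tables and a summed implied count of 2921 in tetraploid and 3970 in diploid Col-0 and of 3711 in tetraploid and 3042 in diploid Ler, and RHD6 and EXPA7 were not listed in either table. PYK10, which made up most of that sum, was called lower in tetraploid Col-0 (−0.61 ± 0.09) and SHR higher (0.47 ± 0.15) in the authors' deposited table, and neither was called in Ler. Among seed storage markers OLEO1 and OLEO2 were called higher in tetraploid Col-0 at mean counts of 5.63 and 8.26 in the authors' deposited table, while CRA1 gave 0.59 ± 1.16 there, uncalled, and SESA1 was not listed. In Ler OLEO1, OLEO2 and CRA1 had negative log2 fold changes and no adjusted p in the authors' deposited table. The part of these markers in the photosystem values was not tested. At ESP the implied count was 64546 in tetraploid Col-0 and 524 in diploid Col-0, against 48260 in tetraploid and 32266 in diploid Ler, across tables that were normalized separately. At ESM1 it was 992 in tetraploid Col-0 and 15073 in diploid Col-0, against 900 in tetraploid and 855 in diploid Ler. Whether tetraploid and diploid Col-0 differ by more than chromosome number was not tested.

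In tetraploid Col-0, 11 of the 36 genes were called, 10 lower and 1 higher, and the change that stood apart was that of the plastocyanin gene PETE2, whose transcripts fell to 47.2% of the diploid level. The other called genes changed by at most 0.44 on the log2 scale. Their median log2 fold change over all 36 was −0.08, against 0.00 for all genes with an adjusted p and 0.02 for those averaging 1000 counts or more. Of all genes with an adjusted p in Col-0, 15.4% were called, 8.23% lower and 7.13% higher. The photosystem genes have high counts, and among all genes averaging 1000 counts or more the authors' calls took in 29.4%, 13.6% lower and 15.8% higher. Of the photosystem genes 30.6% were called, near that share, with 27.8% lower and 2.78% higher. With the null spread of the statistic estimated from the data, 1.67 in place of 1, 3 calls were left (PETE2, LHCB4.2 and PSAD2).

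In tetraploid Ler, 6 of the 36 were called, all 6 of them lower. Of these, 5 were among the 16 genes of photosystem I with its antenna and 1 among the 17 of photosystem II with its antenna. The median log2 fold change over all 36 was −0.10, against −0.01 for all genes with an adjusted p and −0.02 for those averaging 1000 counts or more. Of all genes with an adjusted p in Ler, 5.1% were called, 1.91% lower and 3.19% higher. Among genes averaging 1000 counts or more, 10.3% were called, 5.43% lower and 4.92% higher, beside 16.7% of the photosystem genes. With an estimated null spread of 1.35, 0 of the 6 calls were left. Most of the 36 sat close to 0 in both accessions, with 21 in Col-0 and 25 in Ler within 2 standard errors of no change.

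**Figure D1:**
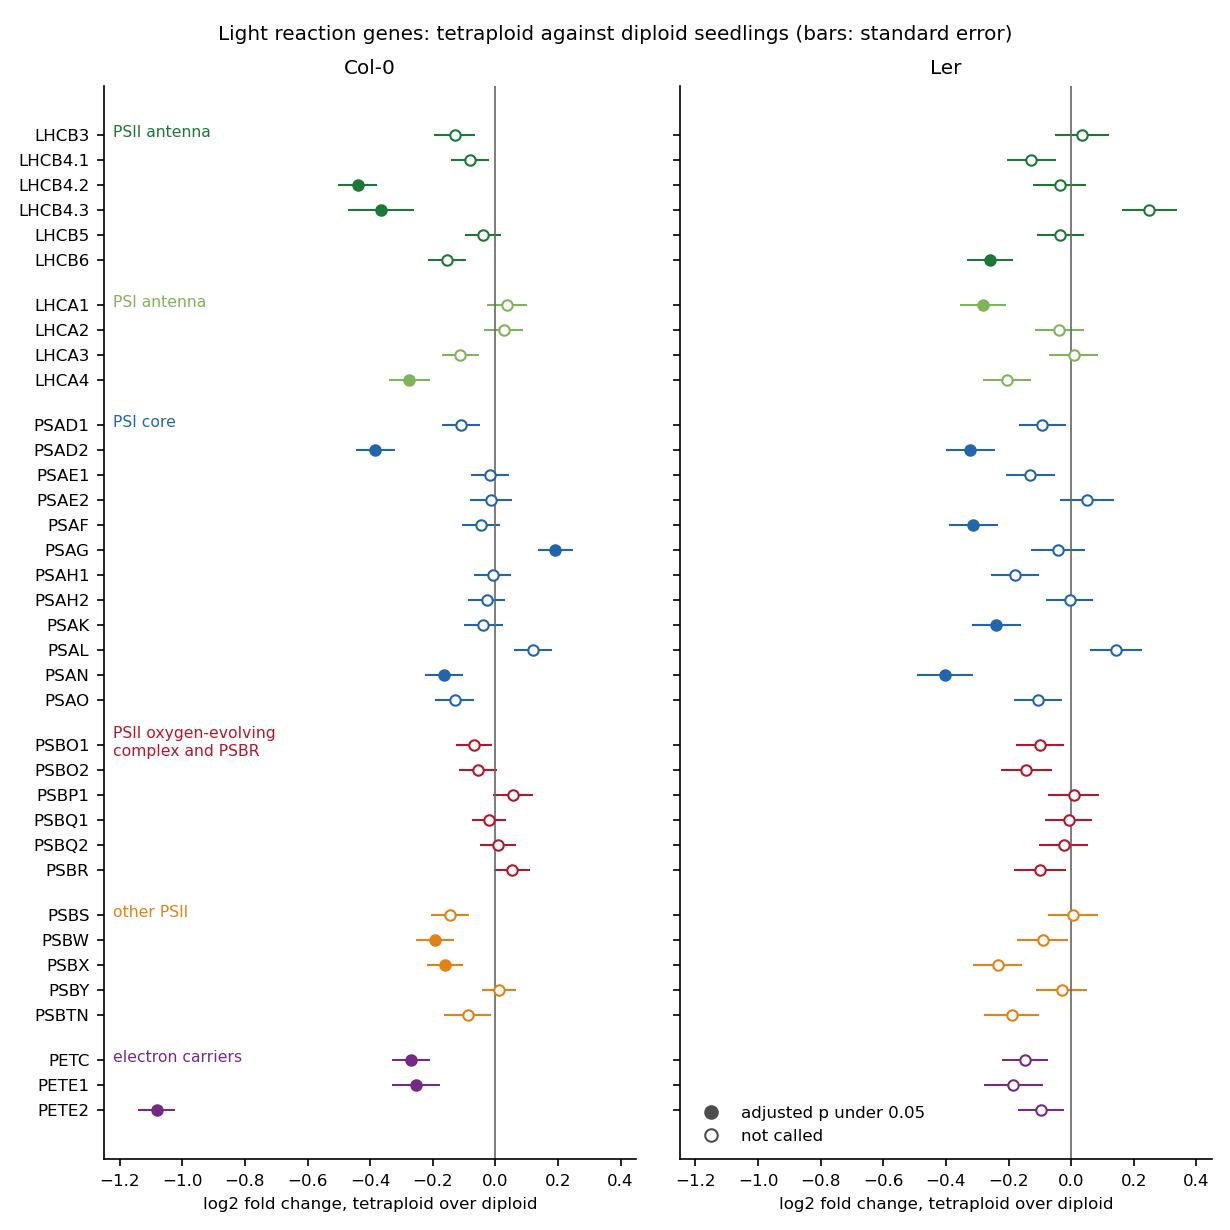
Log2 fold change of each of the 36 genes (tetraploid over diploid, horizontal axis) in Col-0 (left) and Ler (right), grouped by role; bars are the authors' standard errors and filled points have an adjusted p under 0.05. PETE2 in Col-0 stands at −1.08, and all other points lie between −0.44 and 0.25.

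**Figure D2:**
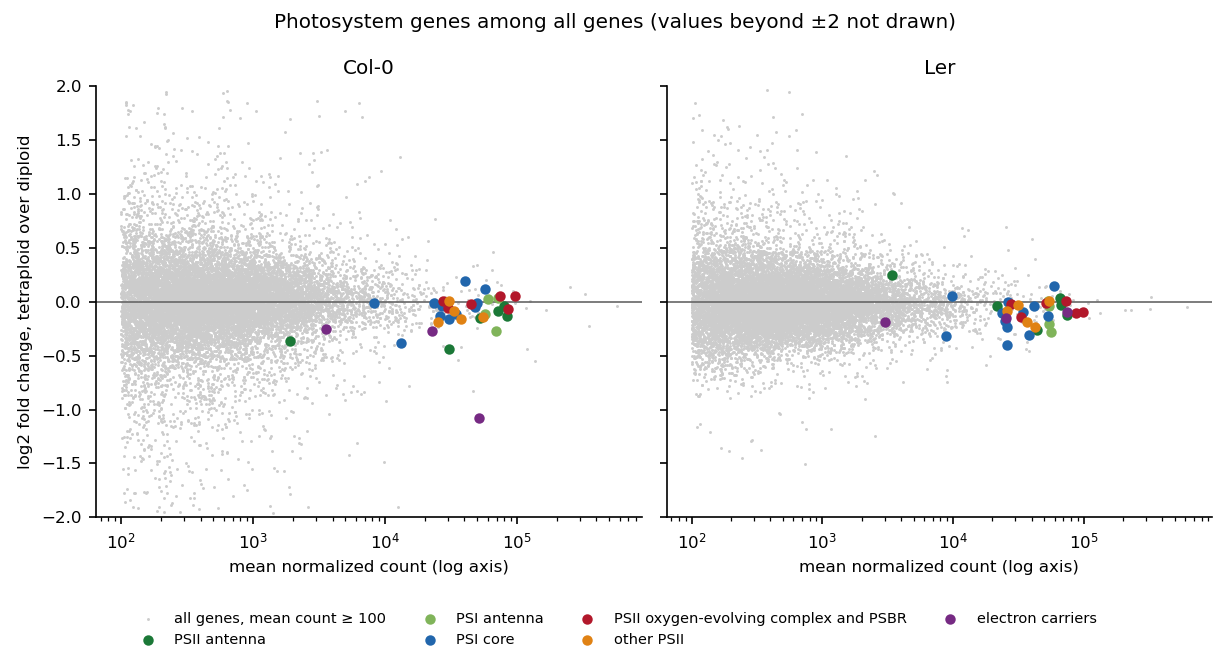
Mean normalized count (horizontal, log axis) against log2 fold change, tetraploid over diploid, for all genes averaging 100 counts or more (grey) and for the 36 photosystem genes (coloured by role) in Col-0 (left) and Ler (right). The coloured points lie at the high-count end, mostly slightly below 0, with PETE2 in Col-0 far below the others.

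All 3 electron carrier genes were called lower in Col-0, and PETE2 had the largest change of the 36 genes. PETE2 (AT1G20340, also named DRT112), 1 of the 2 genes for plastocyanin, the copper protein that carries electrons from cytochrome b6f to photosystem I, had an implied count of 33135 in tetraploid Col-0 against 70136 in diploid Col-0. Its log2 fold change in the authors' deposited table was −1.08 ± 0.06 (DESeq2 adjusted p = 5.5e-72). PETE1 (AT1G76100), the other plastocyanin gene, had an implied count of 3235 in tetraploid and 3854 in diploid Col-0, a log2 fold change of −0.25 ± 0.08 in the authors' deposited table (DESeq2 adjusted p = 0.0089). Both plastocyanin genes therefore fell in Col-0, and summed over both the implied count was 36370 in tetraploids and 73990 in diploids. PETC (AT4G03280), the Rieske iron-sulfur protein of cytochrome b6f, also fell, by 0.27 ± 0.06 in the authors' deposited table (DESeq2 adjusted p = 1.2e-04), with implied counts of 20741 in tetraploid and 24989 in diploid Col-0.

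In Ler none of the 3 electron carrier genes was called by DESeq2, and the lowest of their adjusted p-values was 0.30 (PETC). PETE2 had an implied count of 71855 in tetraploid Ler and 76819 in diploid Ler, and its log2 fold change in the authors' deposited table was −0.10 ± 0.07 with a 95% interval from −0.24 to 0.05. That interval lies wholly above the one in Col-0, whose upper bound was −0.97. Summed over PETE1 and PETE2, tetraploid Ler had 74686 and diploid Ler 80036 implied counts. These sums come from tables normalized separately, and which Col-0 group holds the lower one rests on the direction read above.

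Genes beside PETE2 changed in both directions. Among the 16 genes listed nearest to it on the chromosome, 8 on each side, 4 were called in the authors' deposited Col-0 table, 2 lower and 2 higher, with a median log2 fold change of 0.02. Over the neighbours of all 11 genes called in Col-0, 35 of 165 were called, 18 lower and 17 higher, a share of 21.2% beside 15.4% of all genes. Over those of the 6 genes called in Ler, 3 of 83 were called there, 1 lower and 2 higher, or 3.61% beside 5.1% of all genes. The neighbours were examined after the changes were known. The sources used here do not say how reads that match both plastocyanin genes were counted, so the division between them is less certain than their sum.

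Among the 6 antenna genes of photosystem II, the minor antenna gene family LHCB4, which encodes CP29, held the called changes in Col-0. LHCB4.2 (AT3G08940) had an implied count of 25825 in tetraploid Col-0 against 35015 in diploid Col-0, a fall of 0.44 ± 0.06 on the log2 scale in the authors' deposited table (DESeq2 adjusted p = 8.5e-11). LHCB4.3 (AT2G40100) had 1652 in tetraploids against 2128 in diploids and fell by 0.37 ± 0.10 in the authors' deposited table (DESeq2 adjusted p = 0.0048). The third copy, LHCB4.1 (AT5G01530), gave −0.08 ± 0.06 in the authors' deposited table and was not called. Reads of these related copies can be divided by the counting, so the values of single copies are less certain than their sum. Summed over the 3 copies, the implied count was 97815 in tetraploid and 111581 in diploid Col-0, or 0.877 of the diploid sum.

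In Ler the summed implied count of the 3 LHCB4 copies was 95793 in tetraploids and 102303 in diploids, or 0.936 of the diploid sum, and no single copy was called. LHCB4.3 gave 0.25 ± 0.09 in the authors' deposited table, with an implied count of 3679 in tetraploid and 3094 in diploid Ler, and missed the threshold (DESeq2 adjusted p = 0.073). LHCB4.2 gave −0.04 ± 0.08 and LHCB4.1 −0.13 ± 0.08 in the authors' deposited table, neither called. LHCB6 (AT1G15820), encoding the minor antenna protein CP24, was the called photosystem II antenna gene in Ler, where it fell by 0.26 ± 0.07 in the authors' deposited table (DESeq2 adjusted p = 0.015), with implied counts of 40156 in tetraploid and 48053 in diploid Ler. In Col-0 LHCB6 gave −0.15 ± 0.06 in the authors' deposited table and lay just outside the threshold (DESeq2 adjusted p = 0.059). LHCB3, a subunit of the trimeric antenna, and LHCB5, encoding CP26, were uncalled in both accessions. LHCB3 gave −0.13 ± 0.07 in Col-0 and 0.04 ± 0.09 in Ler in the authors' deposited tables, and of the 6 photosystem II antenna genes LHCB5 was nearest to 0 in Col-0, at −0.04 ± 0.06 in the authors' deposited table.

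Of the 4 genes of the photosystem I antenna, a different one was called in each accession. LHCA4 (AT3G47470) fell by 0.27 ± 0.07 in Col-0 in the authors' deposited table (DESeq2 adjusted p = 4.4e-04), with implied counts of 62479 in tetraploids and 75567 in diploids. In Ler it gave −0.21 ± 0.08 in the authors' deposited table and was not called (DESeq2 adjusted p = 0.11). LHCA1 (AT3G54890), whose protein pairs with that of LHCA4 in the antenna belt, fell by 0.28 ± 0.07 in Ler in the authors' deposited table (DESeq2 adjusted p = 0.0055), with 50429 implied counts in tetraploid and 61312 in diploid Ler. In Col-0 LHCA1 gave 0.04 ± 0.06 there, with implied counts of 72998 in tetraploids and 71073 in diploids. LHCA2 and LHCA3 were uncalled in both accessions, with log2 fold changes between −0.11 and 0.03 in the authors' deposited tables.

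The 12 nuclear genes of the photosystem I core showed the only called rise among the 36 genes. PSAG (AT1G55670), a peripheral subunit on the antenna side, rose by 0.19 ± 0.06 in Col-0 in the authors' deposited table (DESeq2 adjusted p = 0.0062), with implied counts of 43162 in tetraploids and 37804 in diploids. In Ler it gave −0.04 ± 0.09 in the authors' deposited table. PSAL, needed with PSAH for docking of the mobile antenna, was the core gene with the highest value in Ler, 0.14 ± 0.08 in the authors' deposited table, and gave 0.12 ± 0.06 in Col-0, called in neither. PSAO, a small subunit on the same side, gave −0.13 ± 0.06 in Col-0 and −0.11 ± 0.08 in Ler in the authors' deposited tables, also called in neither.

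PSAD2 and PSAN were the 2 genes of the 36 called in both accessions, and both were lower in tetraploids each time. PSAD2 (AT1G03130), a copy of the stromal subunit that docks ferredoxin, had implied counts of 11493 in tetraploid and 14985 in diploid Col-0 and of 7898 in tetraploid and 9869 in diploid Ler. Its log2 fold changes in the authors' deposited tables were −0.38 ± 0.06 in Col-0 and −0.32 ± 0.08 in Ler (DESeq2 adjusted p = 3.4e-08 and 0.0022). The copy PSAD1 gave −0.11 ± 0.06 and −0.09 ± 0.07 there and was called in neither. PSAN (AT5G64040), a lumenal subunit involved in the interaction with plastocyanin, fell by 0.16 ± 0.06 in Col-0 and by 0.40 ± 0.09 in Ler in the authors' deposited tables (DESeq2 adjusted p = 0.046 and 4.9e-04). Its implied count was 28545 in tetraploid and 31993 in diploid Col-0, and 22314 in tetraploid and 29504 in diploid Ler, the lowest log2 fold change of the 36 in Ler.

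PSAF and PSAK were called in Ler and not in Col-0. PSAF (AT1G31330), the subunit that binds plastocyanin, fell by 0.31 ± 0.08 in Ler in the authors' deposited table (DESeq2 adjusted p = 0.0030), with implied counts of 34204 in tetraploids and 42465 in diploids. PSAK (AT1G30380), an antenna-side subunit, fell by 0.24 ± 0.08 there with an adjusted p of 0.047, just inside the threshold. In Col-0 PSAF gave −0.04 ± 0.06 and PSAK −0.04 ± 0.06 in the authors' deposited table. The copies PSAE1 and PSAE2 and PSAH1 and PSAH2 were uncalled in both, within 0.03 of 0 in Col-0 and between −0.18 and 0.05 in Ler in the authors' deposited tables.

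**Figure D3:**
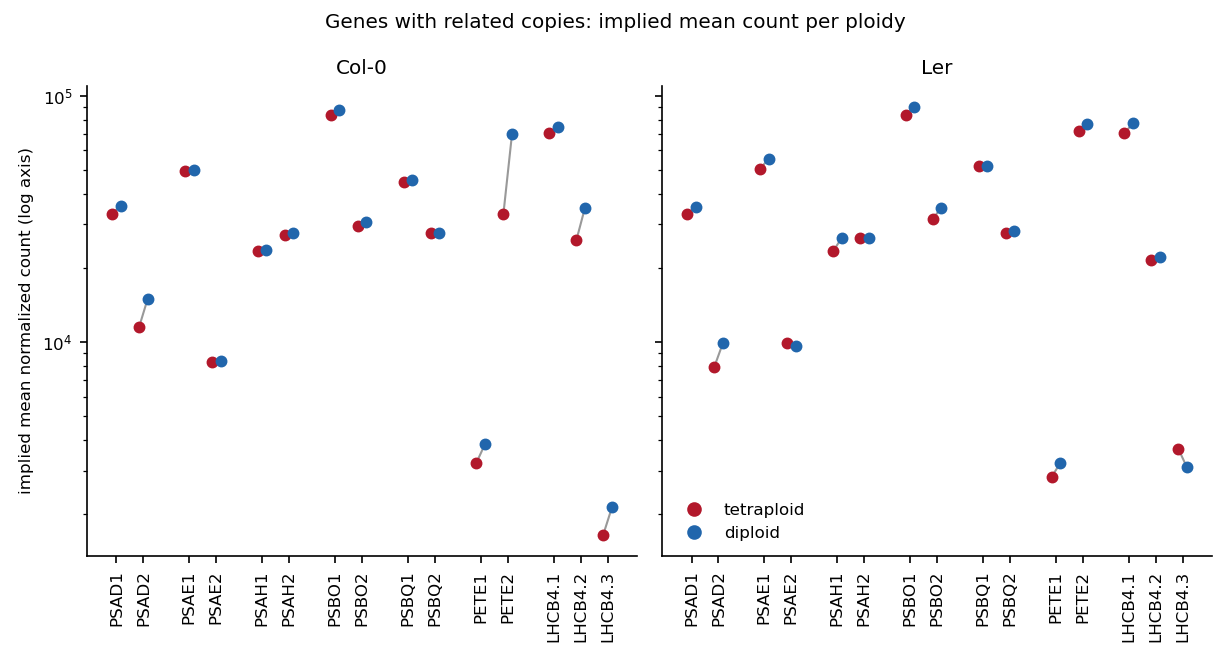
Implied mean normalized count (vertical, log axis) of genes with related copies in tetraploid (red) and diploid (blue) seedlings of Col-0 (left) and Ler (right); no spread is available per ploidy. The longest line is that of PETE2 in Col-0, 33135 against 70136; counts of different genes are not per length.

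The water-oxidising side of photosystem II showed no called change. For its 6 genes, PSBO1, PSBO2, PSBP1, PSBQ1, PSBQ2 and PSBR, DESeq2 called 0 in Col-0 and 0 in Ler, and all 6 lay within 2 standard errors of 0 in both. PSBO1 and PSBO2 encode the manganese-stabilising protein, PSBP1, PSBQ1 and PSBQ2 the other extrinsic proteins of the oxygen-evolving complex, and PSBR a small subunit beside them. Log2 fold changes ran from −0.07 (PSBO1) to 0.06 (PSBP1) in Col-0 and from −0.14 (PSBO2) to 0.01 (PSBP1) in Ler in the authors' deposited tables. Summed over the 6, implied counts were 359657 in tetraploid and 358989 in diploid Col-0, and 362491 in tetraploid and 378854 in diploid Ler. For PSBO1, the 95% interval of the log2 fold change was −0.18 to 0.04 in Col-0 and −0.25 to 0.05 in Ler, so a change of the size seen at PETE2 in Col-0 lies outside both.

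Among the 5 other photosystem II genes, the small membrane subunits PSBW and PSBX fell in Col-0. PSBW (AT2G30570) gave −0.19 ± 0.06 and PSBX (AT2G06520) −0.16 ± 0.06 in the authors' deposited table (DESeq2 adjusted p = 0.015 and 0.036). Of the 15 genes with an adjusted p beside PSBW, 5 were called in Col-0, all lower, with a median of −0.29 over the 15. That share of 33.3% stands beside 15.4% of all genes called in Col-0, 8.23% lower. Directions varied beside other genes called in Col-0. Calls were all lower beside PSBX (2 of 14), PETC (2 of 14) and PSAG (1 of 12). They were all higher beside PSAN (4 of 16), LHCB4.3 (3 of 15) and LHCA4 (3 of 16). Beside LHCB4.2, 6 of 16 were called, 3 lower and 3 higher. PSBX had implied counts of 35633 in tetraploid and 39827 in diploid Col-0. In Ler PSBX gave −0.23 ± 0.08 in the authors' deposited table, with 39065 implied counts in tetraploids and 45959 in diploids, and lay just outside the threshold (DESeq2 adjusted p = 0.052). PSBS (AT1G44575), the sensor of lumen acidity in non-photochemical quenching, was uncalled, with −0.15 ± 0.06 in Col-0 (DESeq2 adjusted p = 0.087) and 0.01 ± 0.08 in Ler in the authors' deposited tables. PSBY and PSBTN were uncalled in both, and PSBY gave the highest value of these 5 in Col-0, 0.01 ± 0.05 in the authors' deposited table.

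Summed over all 36 genes, the implied count was 1531700 in tetraploid and 1636640 in diploid Col-0, a ratio of 0.936. In Ler the sums were 1479510 in tetraploids and 1580320 in diploids, again a ratio of 0.936. Leaving out PETE2, the ratio was 0.957 in Col-0 and 0.936 in Ler. By complex, the tetraploid sum was 0.951 of the diploid sum for photosystem II with its antenna and 0.970 for photosystem I with its antenna in Col-0. In Ler these ratios were 0.948 for photosystem II and 0.921 for photosystem I. The electron carriers gave 0.577 in Col-0 and 0.926 in Ler. These ratios of sums have no error of their own. PETE2 held most of the carriers' counts in Col-0, where its tetraploid level was 0.472 of the diploid one, against 0.839 for PETE1 and 0.830 for PETC.

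To compare accessions, each gene's Col-0 log2 fold change was subtracted from its Ler value and tested by a two-sided Wald test, adjusted by Benjamini-Hochberg over 21361 shared identifiers. Of the 36 genes, 4 differed, or 11.1%, against 8.71% of all shared identifiers and 18% of those averaging 1000 counts or more in each table. With an estimated null spread of 1.52, 1 (PETE2) was left. PETE2 differed by 0.99 ± 0.10 (adjusted p = 1.6e-22 by this Wald test, all shared genes), with the tetraploid relatively higher in Ler. LHCB4.3 differed by 0.62 ± 0.14 (Wald adjusted p = 2.2e-04) and LHCB4.2 by 0.40 ± 0.10 (Wald adjusted p = 0.0027), both lower in tetraploid Col-0. LHCA1 differed by −0.32 ± 0.10 (Wald adjusted p = 0.017), lower in tetraploid Ler. PSAF, called in Ler and not in Col-0, did not pass this test (−0.27 ± 0.10, Wald adjusted p = 0.070), and for PSAG the difference was −0.23 ± 0.10 (Wald adjusted p = 0.17).

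Of the 11 genes called in Col-0, 18.2% were also called in Ler, and of the 6 called in Ler, 33.3% were also called in Col-0. Of all genes averaging 1000 counts or more, 10.3% were called in Ler and 29.4% in Col-0. Log2 fold changes were negative in both accessions for 23 genes, positive in both for 2 and opposite in sign for 11. Across the 36 genes, Pearson's r between the accessions was 0.09 and Spearman's rho 0.26, as a description over genes that share their libraries and are not independent replicates. The median difference was −0.01 for the 36 genes and 0.01 for all shared identifiers. Overlap of calls, shared signs and correlations were not worked out over all genes, so whether they set these 36 apart was not tested.

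**Figure D4:**
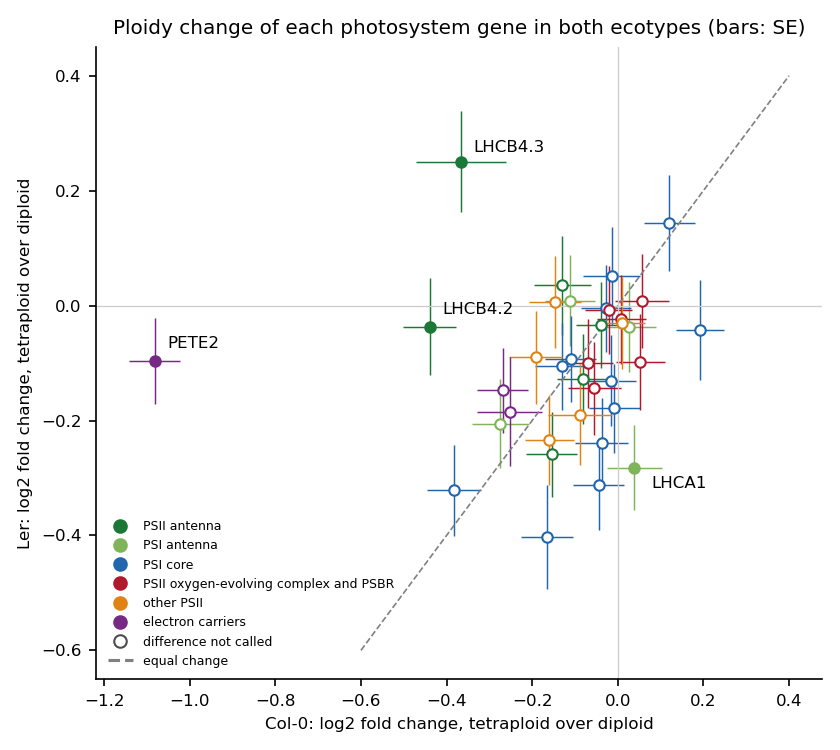
Log2 fold change, tetraploid over diploid, of each of the 36 genes in Col-0 (horizontal) and in Ler (vertical); bars are the authors' standard errors, the dashed line marks equal change and filled points are the 4 genes whose difference was called. PETE2 lies far left, at −1.08 in Col-0 and −0.10 in Ler.

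Other genes of the light reactions, chlorophyll synthesis and their regulators are set beside the shares of all genes called given above, 15.4% in Col-0 and 5.1% in Ler, or 29.4% and 10.3% of genes averaging 1000 counts or more. Of 19 further genes (ATP synthase, ferredoxin, ferredoxin reductase, cyclic electron flow, state transition, xanthophyll cycle and rare antenna genes), 4 were lower and 3 higher in tetraploid Col-0, and 3 lower and 1 higher in tetraploid Ler. That was 36.8% of them in Col-0 and 21.1% in Ler. Their medians were −0.07 in Col-0 and 0.00 in Ler. FD2, the main leaf ferredoxin, fell in both, by 0.42 ± 0.07 in Col-0 and 0.43 ± 0.08 in Ler in the authors' deposited tables (DESeq2 adjusted p = 7.8e-09 and 2.5e-06). FD1, another ferredoxin gene, rose by 0.22 ± 0.06 in Col-0 there (DESeq2 adjusted p = 0.0017). In Ler FD1 gave −0.17 ± 0.08, uncalled, a difference of −0.39 ± 0.10 (Wald adjusted p = 0.0015). PGRL1A, of cyclic electron flow, gave −0.01 ± 0.06 in Col-0, uncalled, and rose by 0.34 ± 0.08 in Ler there (DESeq2 adjusted p = 0.0014). PETM, a small cytochrome b6f subunit, fell in Col-0, where the authors' deposited table gave −0.31 ± 0.06, and gave −0.27 ± 0.10 in Ler, uncalled. LHCB7, a rare antenna gene, rose by 0.78 ± 0.12 in Col-0 and fell by 0.40 ± 0.12 in Ler in the authors' deposited tables, a difference of −1.18 ± 0.17 (Wald adjusted p = 2.3e-10).

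Of 14 genes of chlorophyll synthesis, 4 were lower and 0 higher in tetraploid Col-0, and 2 were lower and 1 higher in tetraploid Ler. That was 28.6% of them in Col-0, near the share of highly counted genes, and 21.4% in Ler. Their medians were −0.08 in Col-0 and −0.02 in Ler, near those of the 36 photosystem genes in Col-0. HEMA1, which encodes glutamyl-tRNA reductase at the start of tetrapyrrole synthesis, fell by 0.78 ± 0.07 in Col-0 and 0.74 ± 0.09 in Ler in the authors' deposited tables (DESeq2 adjusted p = 5.1e-31 and 1.6e-15). Its implied count was 11208 in tetraploid and 19275 in diploid Col-0, and 6711 in tetraploid and 11237 in diploid Ler. CHLM, the magnesium protoporphyrin methyltransferase gene, also fell in both, by 0.33 ± 0.06 in Col-0 and 0.25 ± 0.08 in Ler in the authors' deposited tables. CHLI2, a subunit of magnesium chelatase, fell by 0.48 ± 0.09 in Col-0 and gave 0.13 ± 0.09 in Ler there, a difference of 0.60 ± 0.13 (Wald adjusted p = 1.5e-04). CAO, which makes chlorophyll b, fell by 0.42 ± 0.07 in Col-0 and gave −0.03 ± 0.09 in Ler in the authors' deposited tables, a difference of 0.39 ± 0.11 (Wald adjusted p = 0.0074).

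Among 14 genes of assembly and regulation, 6 were lower and 4 higher in tetraploid Col-0, and 1 was lower and 0 higher in tetraploid Ler, with medians of −0.15 and −0.12. That was 71.4% of them in Col-0 and 7.14% in Ler. GLK1, a transcription factor known to activate antenna and chlorophyll synthesis genes, fell in both accessions, by 0.84 ± 0.07 in Col-0 and 0.49 ± 0.08 in Ler in the authors' deposited tables (DESeq2 adjusted p = 1.5e-30 and 1.3e-06). Its implied count was 3972 in tetraploid and 7093 in diploid Col-0, and 3951 in tetraploid and 5530 in diploid Ler. The fall was larger in Col-0, with a difference of 0.35 ± 0.11 (Wald adjusted p = 0.021). GLK2, its homologue, gave −0.01 ± 0.08 in Col-0 and −0.28 ± 0.10 in Ler in the authors' deposited tables and was uncalled in both. HY5, a light-signalling transcription factor, rose by 0.77 ± 0.11 in Col-0 and gave −0.11 ± 0.10 in Ler in the authors' deposited tables, a difference of −0.88 ± 0.15 (Wald adjusted p = 4.4e-07). SIG5, a nuclear sigma factor for chloroplast transcription under light and stress, rose by 0.97 ± 0.07 in Col-0 and gave 0.09 ± 0.09 in Ler in the authors' deposited tables.

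Carbon fixation in the stroma uses the products of the light reactions. Of 18 genes of the Rubisco small subunit, Rubisco activase and the Calvin cycle, 4 were lower and 1 higher in tetraploid Col-0, and 1 lower and 0 higher in tetraploid Ler, with medians of −0.03 and −0.05. That was 27.8% of them in Col-0, near the 29.4% of highly counted genes. In Ler it was 5.56%, near the 5.1% of all genes and below the 10.3% of highly counted genes. RBCS2B, a Rubisco small subunit gene with close copies, fell by 0.44 ± 0.06 in Col-0 and gave −0.11 ± 0.07 in Ler in the authors' deposited tables, a difference of 0.33 ± 0.09 (Wald adjusted p = 0.0062). Of 13 clock genes, 3 were lower and 2 higher in tetraploid Col-0, and 2 lower and 1 higher among the 12 with an adjusted p in tetraploid Ler, or 38.5% in Col-0 and 25% in Ler. The other 8 in Col-0 and 9 in Ler did not pass. LHY, a morning clock gene, rose by 0.29 ± 0.07 in Col-0 and fell by 0.36 ± 0.08 in Ler in the authors' deposited tables, and PRR9 fell by 0.53 ± 0.12 in Col-0 and rose by 0.56 ± 0.12 in Ler there. The other called clock genes were called in a single accession. PRR7 and GI fell in Col-0 by 0.84 ± 0.13 and 0.42 ± 0.13, and gave −0.06 ± 0.14 and −0.22 ± 0.12 in Ler in the authors' deposited tables. CCA1 rose by 0.29 ± 0.07 in Col-0 and gave −0.03 ± 0.09 in Ler there. RVE8 gave 0.07 ± 0.08 in Col-0 and fell by 0.34 ± 0.10 in Ler there. The sources used here give no hour of harvest, and the part of these clock genes in the photosystem values was not tested.

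**Figure D5:**
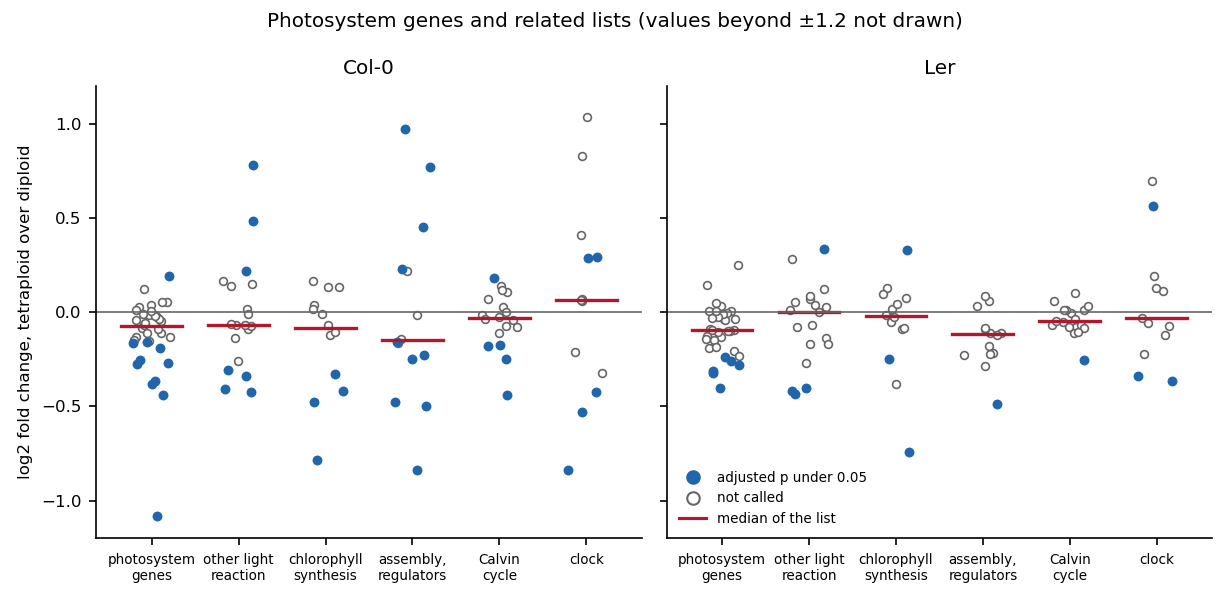
Log2 fold change, tetraploid over diploid, of the 36 photosystem genes and of 5 related lists in Col-0 (left) and Ler (right); each point is a gene, filled where the adjusted p was under 0.05, and the red line is the median. Apart from PETE2 in Col-0, photosystem genes lie between −0.44 and 0.25, while assembly and regulator genes in Col-0 reach −0.84 (GLK1) and 0.97 (SIG5); PORA in Col-0 and ELF4 in Ler, both uncalled, lie outside the axis.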

How the data were processed

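RNA from seedlings was sequenced in 8 libraries, 2 per accession and ploidy, per the labels. Tools named by the submitters' processing notes are DESeq2, HISAT2 and Subread, with the build TAIR10 and no versions or roles. Two-sided Wald p-values, adjusted p-values, log2 fold changes with standard errors and Wald statistics (a score) are the authors' deposited DESeq2 results, and the mean normalized count is their deposited signal, averaged over the 4 libraries of a table. The statistic equals the log2 fold change over its standard error, so the deposited values are not shrunken. Adjusted p-values are the authors', over the 21420 Col-0 and 18683 Ler genes that have one. The labels do not state whether replicate libraries are from separately grown plants, and p-values cover only library-to-library spread, possibly technical. Library totals are not in the tables, and mean counts sum to 22343400 in Col-0 and 22138500 in Ler. Both tables were normalized separately and share no library. The count test set out for tables with counts per library could not be used.

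Computed here with Python 3.11.15, numpy 2.4.6, pandas 2.3.3, scipy 1.17.1 and matplotlib 3.10.9 were implied counts per ploidy, summaries and the Wald test between accessions, which was tested on simulated data. The simulated noise had the size of the deposited standard errors, so it did not cover the wider spread of 1.52 estimated for the difference. Implied counts assume that the fold change is the ratio of mean normalized counts. Gene order and names came from a gene table of TAIR10.1, in which all 36 genes were found. Named are all genes called in a table or in the difference test, the highest and lowest of each role group, genes with related copies, and in other lists at most 4 called genes per direction. The genes and lists were chosen with earlier results of these data known. Promoter motifs and levels per coding length were not analysed here.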

Additional observations from a re-analysis of the deposited data

Results flagged for a closer look

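For 4 of the 36 genes the ploidy change differed between the accessions in the Wald test of the difference itself, Ler minus Col-0. That was 11.1%, against 8.71% of all shared identifiers and 18% of those averaging 1000 counts or more in each table. With the null spread estimated from the data, only PETE2 kept its call. PETE2 differed by 0.99 on the log2 scale, LHCB4.3 by 0.62, LHCB4.2 by 0.40 and LHCA1 by −0.32. PETE2 and LHCB4.2 were called in Col-0 and not in Ler, LHCA1 was called in Ler and not in Col-0, and LHCB4.3 was called in Col-0 and had the opposite sign in Ler, where it was not called.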

How the results depend on the processing

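No paired analysis was possible because the tables hold no value per library, and for the same reason no replicate could be left out. The spread assumed for the Wald statistic mattered most. With an empirical null, whose centre and spread are taken from genes averaging 100 counts or more and whose spread was 1.67 in Col-0, 1.35 in Ler and 1.52 for the difference, the calls in Col-0 fell to 3 (LHCB4.2, PSAD2 and PETE2, all lower, 0 higher), those in Ler to 0, 0 of them lower, and those of the difference to 1 (PETE2, higher in Ler, 0 lower). PSAN in Ler then had an adjusted p of 0.071 and LHCB4.3 in the difference of 0.088. That null left 1043 of all Col-0 genes, 273 of all Ler genes and 525 differences, against 3290, 952 and 1860. Its spread was taken with changed genes included, so it cannot tell noise from widespread change. With an adjusted p under 0.01 the calls were 8 in Col-0, 4 in Ler and 3 for the difference, with 0 of the last lower in Ler, and over all genes 2323, 548 and 1220. Adjusting over every gene or over those averaging 100 counts or more gave 11 and 12 calls in Col-0 and 5 and 7 in Ler. Recentring on the median gene gave 12 in Col-0 and 6 in Ler, of which 1 (LHCB4.3, adjusted p = 0.047) was higher, and turned PSAH2 to 0.012 and PSBQ1 to 0.0089 in Ler. Under the empirical null PSAH2 was 0.0032 and PSBQ1 8.31e-06 there. PSAK in Ler lost its call over every gene (adjusted p = 0.057) and on recentring (0.076). The medians stayed between −0.08 and −0.07 in Col-0 and between −0.10 and −0.08 in Ler, including without PETE2, an alternative chosen after seeing the data. Adjusting the difference over genes adjusted by the authors in each table, also chosen then, gave 4. All genes had mean counts of at least 1000, so that filter removed none. The cause of these changes was not tested.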
